A study of Mus musculus with 12 samples.

Results

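The interferon-stimulated genes described here are 39 genes named as a module, and each was matched by its symbol to an Ensembl identifier and so to a row of the count table. All 39 were found among 37991 genes, and 38 of them were among the 16473 genes with enough counts to be tested. Oas3, with 77 counts over all 12 libraries, was the member below that filter. RNA was sequenced from whole pieces of mouse spinal cord, in 3 groups of 4 mice, to compare lesions that the study describes as having attenuated (SCI Tam) or dense (SCI Veh) scarring by pericyte-derived cells with uninjured cord.

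Every mouse was an adult over 8 weeks old on a C57bl/6J background and carried the same 3 components, Glast-CreERT2, R26R-YFP and Rasless. Glast-CreERT2 is a tamoxifen-dependent Cre recombinase under the promoter of Glast (Slc1a3), which in this line serves to reach type A pericytes and their descendants, R26R-YFP is a fluorescent reporter of recombination, and Rasless, as background, is a cross made for the loss of Ras genes on recombination. SCI Tam mice (libraries 452, 513, 549 and 564) were given 2 mg of tamoxifen a day into the peritoneum for 5 days. After 7 days without drug the high thoracic cord was hemisected from the dorsal side, and the lesion was taken 14 days later. SCI Veh mice (402, 428, 429 and 457) had the solvent alone and the same injury and collection. Uninjured mice (376, 377, 385 and 467) were age-matched, carry a vehicle label and gave a cord segment without injury. Values of a group are given in these library orders, and libraries carry the number of their mouse.

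Interferons are secreted proteins that cells release on sensing foreign or misplaced nucleic acid, and type I and type III interferons act through receptors coupled to JAK1 and TYK2. These kinases activate STAT proteins, and a complex that holds STAT2 and IRF9 binds the interferon-stimulated response element in front of many antiviral genes. Interferon-gamma acts on a partly different set, in which guanylate-binding proteins and immunity-related GTPases are prominent. In the spinal cord and brain, microglia, infiltrating macrophages, astrocytes and endothelial cells can all respond.

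Some features of the libraries move with the groups and bear on every value given here. The labels' sample names run from 1 to 20 in 9 libraries, 452 included, and from 106 to 108 in SCI Tam libraries 513, 549 and 564, so 452 was the only SCI Tam library in the lower range. Between 513, 549 and 564 and library 452, 746 genes (4.53%) differed in a fit with a term for this numbering. All 4 SCI Tam mice were female by Xist and Y-linked transcripts, as were SCI Veh mouse 429 and Uninjured mice 376, 377 and 385, and the others were male. Summed skeletal muscle transcripts exceeded 100 CPM (counts scaled to the size of the library) in 402, 429, 457, 377 and 385 and in no SCI Tam library. Library totals ran from 7967970 to 12581324 counts.

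The element that the complex of STAT2 and IRF9 recognises has a simple core, GAAA, any 2 bases and GAAA again (read on the other strand, TTTC, any 2 bases and TTTC), and the promoters of the members were searched for these letters because the module is defined by that response. RefSeq promoter windows (build GRCm38.p6, 250 bases before to 50 after a start site) matched 29 of 39 members. The core was in 18 of those 29 (62.1%) and in 1079 of 27025 genes with a window (3.99%). In 14 members at least 1 match lay upstream of the start site, and 8 members had more than 1 match in a window. The shorter GAAANNGAA, 1 base shorter than the core and present in each copy of it, was in 69.0% of matched members and 9.76% of genes. A STAT dimer motif, TTCNNNGAA, which is its own reverse complement and can overlap the others, was in 27.6% of members and 9.55% of genes. The following are 50-base stretches upstream of the start site, 5′ to 3′ along the gene's strand, of members from the main families, with each core match in capitals. They show how the same letters stand in front of genes that differ in level and, further on, in how far they vary between lesions.
Isg15, chr4:156200867-156200916, minus strand: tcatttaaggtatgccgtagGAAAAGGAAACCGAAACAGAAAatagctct
Ifit1, chr19:34640765-34640814, plus strand: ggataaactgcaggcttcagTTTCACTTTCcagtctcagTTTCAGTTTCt
Ifit3, chr19:34583353-34583402, plus strand: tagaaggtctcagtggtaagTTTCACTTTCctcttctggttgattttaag
Oas1a, chr5:120907526-120907575, minus strand: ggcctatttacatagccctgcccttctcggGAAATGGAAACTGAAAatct
Rsad2, chr12:26456543-26456592, minus strand: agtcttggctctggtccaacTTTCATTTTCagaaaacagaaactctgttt
Gbp2, chr3:142620584-142620633, plus strand: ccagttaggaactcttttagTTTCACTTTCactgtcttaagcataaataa
Gbp3, chr3:142559979-142560028, plus strand: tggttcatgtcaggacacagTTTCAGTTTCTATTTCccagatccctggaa
Irgm1, chr11:48871421-48871470, minus strand: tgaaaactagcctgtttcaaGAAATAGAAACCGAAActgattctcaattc
Irgm2, chr11:58214893-58214942, plus strand: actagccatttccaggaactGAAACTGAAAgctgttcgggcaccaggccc
Igtp, chr11:58199502-58199551, plus strand: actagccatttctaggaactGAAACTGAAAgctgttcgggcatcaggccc

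Isg15 held 3 matches that run into each other, the first beginning 78 bases before the start site. Ifit1 and Ifit3 each held 2 on the opposite strand, the later one of Ifit3 outside the stretch shown, and in Gbp2 the single match began 59 bases before the start. The stretches of Irgm2 and Igtp were identical at 48 of 50 bases. Cmpk2, Irf7, Irf9, Ifit2, Oasl1, Oasl2, Samd9l, Dtx3l, Ifi44, Ifi35 and Xaf1 had a window without the core, which says only that these letters are not in it. Dhx58, Zbp1, Oas2, Usp18, Mx1, Mx2, Parp9, Parp14, Iigp1 and Rtp4 had no entry.

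Most of the module was higher after injury. In SCI Veh lesions 33 of the 38 tested members were higher than in Uninjured cord, where 26.7% of all genes tested were higher, and 1 was lower, against 24.1% of all genes (edgeR quasi-likelihood test, Benjamini-Hochberg adjusted p under 0.05). The median log2 fold change of the 38 was 1.61, against 0.02 over all genes tested, and in 36 of them every SCI Veh library lay above every Uninjured library, as in 26.3% of all genes. Without the 5 libraries high in muscle transcripts 37 of 39 members still had positive values, with a median of 0.99. No member was called in that fit by edgeR, where 1.6% of all genes were higher and 0.103% lower; it holds SCI Veh library 428 alone, whose spread is assumed to be like that of the other groups, and 2 Uninjured libraries. With all 12 libraries the member that fell was Cmpk2, and Stat2, Rsad2, Igtp and Ifi44 did not pass. In SCI Tam lesions 35 of 38 members were higher than in Uninjured cord (26.3% of all genes), none was lower (22.7%), and the median log2 fold change was 1.44. In 30 members the groups did not overlap (21.4%), and without the 5 libraries high in muscle 14 were higher (10.5% of all genes) and none lower (9.85%), with a median of 1.41. Leaving out 1 library in turn ended the calls of Iigp1 and Irgm2 in SCI Veh over Uninjured and those of Irgm2, Mx2, Oasl1, Usp18 and Xaf1 in SCI Tam over Uninjured, each in at least 1 such fit.

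Tissue level cannot separate fewer cells of a type from less RNA per cell. In SCI Veh over Uninjured, markers of macrophages and microglia rose in 11 of 11 genes (26.7% of all genes), and their summed level was 1080 to 2062 CPM in SCI Tam, 1394 to 2483 CPM in SCI Veh and 248 to 351 CPM in Uninjured libraries. Fibroblast and pericyte markers also rose in 8 of 8, with sums of 712 to 922 CPM in SCI Tam, 2129 to 5243 CPM in SCI Veh and 320 to 651 CPM in Uninjured libraries. In SCI Tam against SCI Veh 1 of the 11 and 5 of the 8 were lower (8.33% of all genes). The part of either in the values of the members was not tested.

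Between SCI Tam and SCI Veh lesions the module did not move as one. No member was higher in SCI Tam (7.79% of all genes were) and 1 was lower, Oas2 (8.33% of all genes were). The median log2 fold change was -0.10, against 0.00 over all genes tested, 14 of the 38 values were positive (50.1% of all genes), and 4 members had an unadjusted p under 0.05 (33.4%). Only Oas2 and Ifitm3 had all 4 SCI Tam libraries below all 4 SCI Veh libraries (8.77% of all genes), and none had all 4 above (7.68%). This comparison and the one of SCI Veh with Uninjured share the SCI Veh libraries. Library by library, SCI Tam library 452 stood above the SCI Veh range for most members and the other 3 stood mostly below the SCI Veh mean, as described after the single genes. With a term for sex, which overlaps with the groups in part, the median was -0.31, Ifitm3 passed (log2 -0.92, edgeR adjusted p = 0.0341) and Oas2 did not (-1.19, adjusted p = 0.0618). Without the 5 libraries high in muscle, which leaves SCI Veh library 428 alone, the median was 0.34, 34 of 39 values were positive, and no gene of all those tested was called by edgeR.

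**Figure D1:**
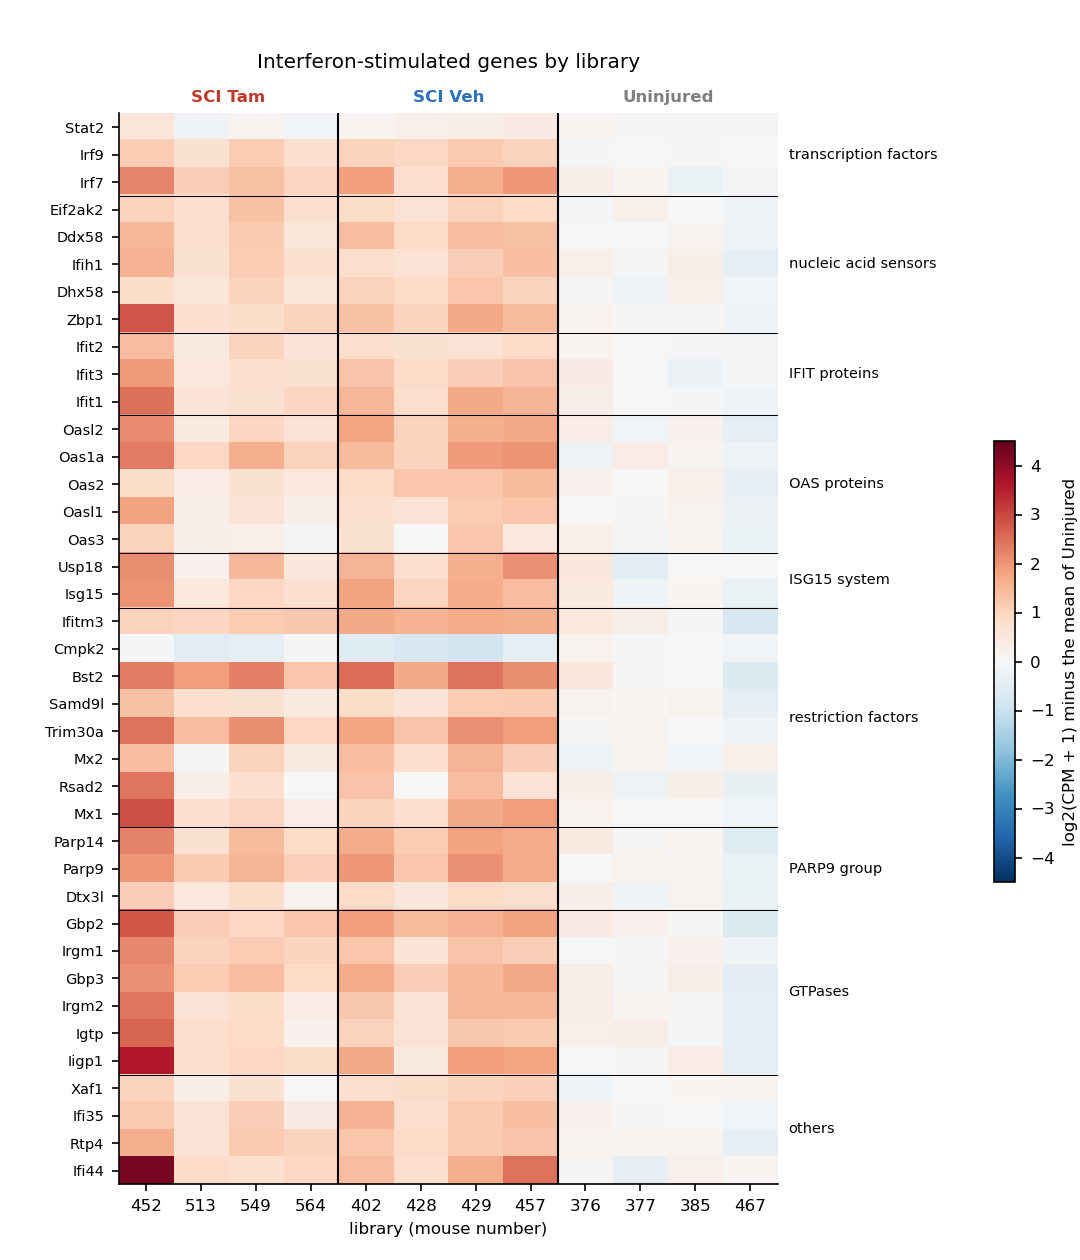
Heat map of the 39 members (rows, by role) in the 12 libraries (columns, SCI Tam, SCI Veh, then Uninjured), coloured by log2(CPM + 1) minus the mean of the Uninjured libraries. Nearly every row is red in the SCI Veh columns, Cmpk2 is blue there, and 452 is the highest of the SCI Tam columns in 35 of 39 members.

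Among the transcription factors, Irf7, the factor that amplifies interferon production and is itself induced by interferon, moved most. Irf7 was at 16.2, 7.18, 8.41 and 6.34 CPM in SCI Tam, 12.7, 5.43, 10.7 and 13.6 CPM in SCI Veh and 3.67, 3.00, 2.11 and 2.55 CPM in Uninjured libraries. Every lesion lay above every Uninjured cord, and the lesion groups overlapped. Irf7 rose 3.80-fold in SCI Veh over Uninjured (log2 1.92, SE 0.35, edgeR adjusted p = 0.000530) and its SCI Tam to SCI Veh log2 difference was -0.18 (adjusted p = 0.721). Irf9, the DNA-binding partner of STAT2, was at 33.1, 23.7, 33.04 and 24.4 CPM in SCI Tam, 30.9, 28.5, 33.6 and 30.7 CPM in SCI Veh and 13.7, 14.7, 14.8 and 14.6 CPM in Uninjured libraries. Every lesion lay above every Uninjured cord, and Irf9 had the smallest p of all members in both injury comparisons (2.14-fold, adjusted p = 1.48e-05 by edgeR in SCI Veh over Uninjured; 1.97-fold, adjusted p = 6.65e-05 in SCI Tam over Uninjured). Stat2 was at 52.97, 31.8, 39.3 and 32.8 CPM in SCI Tam, 38.9, 41.8, 43.6 and 47.03 CPM in SCI Veh and 37.9, 37.1, 34.7 and 33.6 CPM in Uninjured libraries. The SCI Veh values all lay just above the Uninjured ones, yet the 1.20-fold difference did not pass (edgeR adjusted p = 0.129), and 2 of the SCI Tam values lay below the lowest Uninjured one. In the annotation Irf9 overlaps Rnf31 on the same strand, and how reads were divided between them is uncertain. Irf7 overlaps Phrf1 on the opposite strand.

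All 5 sensors of nucleic acid rose in SCI Veh over Uninjured. Zbp1, which recognises left-handed nucleic acid and can start necroptosis, was at 8.27, 1.21, 1.30 and 1.65 CPM in SCI Tam, 2.24, 1.60, 3.31 and 2.51 CPM in SCI Veh and 0.459, 0.257, 0.351 and 0.176 CPM in Uninjured libraries. Library 452 was far above all others, while 513, 549 and 564 lay near or below the low end of SCI Veh. Zbp1 rose 7.79-fold in SCI Veh (edgeR adjusted p = 0.00451), from 13 counts over the 4 Uninjured libraries. Dhx58, which encodes LGP2, a regulator of the RIG-I-like receptors, was at 4.79, 3.82, 5.64 and 3.86 CPM in SCI Tam, 5.77, 5.06, 6.80 and 5.57 CPM in SCI Veh and 2.41, 1.97, 2.90 and 2.02 CPM in Uninjured libraries, and here 549 and not 452 was the highest SCI Tam library. It rose 2.49-fold in SCI Veh, and its SCI Tam to SCI Veh difference of -0.36 (log2) did not pass (adjusted p = 0.170 by edgeR). Eif2ak2 encodes PKR, the kinase that halts translation on double-stranded RNA. Its levels were 34.99, 28.7, 42.9 and 28.01 CPM in SCI Tam, 30.2, 26.05, 34.99 and 30.6 CPM in SCI Veh and 15.6, 19.3, 16.3 and 14.7 CPM in Uninjured libraries, with both lesion groups above Uninjured and overlapping each other; it rose 2.04-fold in SCI Tam over Uninjured (edgeR adjusted p = 0.000157). The RNA receptors Ifih1 (MDA5) and Ddx58 (RIG-I) rose 2.12-fold and 2.54-fold in SCI Veh.

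The IFIT proteins bind viral RNA ends and restrict its translation, and their 3 genes rose in both lesion groups over Uninjured. Ifit1 was at 29.1, 7.46, 7.72 and 9.74 CPM in SCI Tam, 14.4, 8.39, 16.6 and 14.7 CPM in SCI Veh and 5.51, 4.46, 4.13 and 3.86 CPM in Uninjured libraries. Ifit3 was at 59.7, 21.3, 25.8 and 24.6 CPM in SCI Tam, 37.6, 28.4, 33.2 and 37.9 CPM in SCI Veh and 19.6, 14.8, 12.5 and 14.05 CPM in Uninjured libraries. For both, 452 was the highest of all 12 libraries, and 513, 549 and 564 lay below 3 of the 4 SCI Veh libraries for Ifit1 and below all 4 for Ifit3. Ifit2 was at 64.7, 32.5, 49.2 and 38.9 CPM in SCI Tam, 43.2, 39.1, 39.03 and 45.5 CPM in SCI Veh and 26.6, 24.3, 23.4 and 22.8 CPM in Uninjured libraries, with 452 and 549 above every SCI Veh library and 513 and 564 below every one. The rises in SCI Veh over Uninjured were 3.04-fold for Ifit1 (edgeR adjusted p = 0.00577), 2.26-fold for Ifit3 (0.00391) and 1.72-fold for Ifit2 (0.00180). The mean of Ifit1 was 13.5 ± 10.5 CPM in SCI Tam and 13.5 ± 3.56 CPM in SCI Veh (SD, n = 4 each), close means with unlike spreads. Of the 31-base words in Ifit3 transcripts 61.8% also occur in another gene, mostly its copy Ifit3b, so how the authors' counting divided reads between them is uncertain.

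OAS proteins make the second messenger that activates RNase L, and Oasl1 and Oasl2 are relatives. The 4 tested OAS genes rose in SCI Veh over Uninjured. Oas2 was at 2.52, 1.49, 2.17 and 1.74 CPM in SCI Tam, 2.56, 3.70, 3.77 and 4.31 CPM in SCI Veh and 1.26, 0.943, 1.32 and 0.527 CPM in Uninjured libraries, so that each group stood apart from the next, with 452 (SCI Tam) and 402 (SCI Veh) only just separate. It rose 3.56-fold in SCI Veh over Uninjured (edgeR adjusted p = 0.000178) and fell in SCI Tam to 0.548 times its SCI Veh level (log2 -0.87, SE 0.26, edgeR adjusted p = 0.0406). That call held in 10 of 23 alternatives and was lost, for instance, without library 513 (adjusted p = 0.114), 564 (0.11), 549 (0.0587), 457 (0.114), 429 (0.0891), 428 (0.0682) or 377 (0.0562). Oasl1 was at 3.24, 0.466, 0.867 and 0.459 CPM in SCI Tam, 0.962, 0.864, 1.65 and 1.88 CPM in SCI Veh and 0.230, 0.257, 0.351 and 0 CPM in Uninjured libraries, with only 9 counts in Uninjured behind its 6.29-fold rise. Oas3, below the filter, was at 1.56, 0.466, 0.434 and 0.276 CPM in SCI Tam, 0.962, 0.247, 1.93 and 0.706 CPM in SCI Veh and 0.459, 0.171, 0.351 and 0 CPM in Uninjured libraries, where all 3 groups overlapped. Oasl2 rose 3.21-fold and Oas1a 5.12-fold in SCI Veh, and 68.8% of the 31-base words of Oas1a are shared, mostly with Oas1g.

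Isg15 encodes a ubiquitin-like protein that is attached to other proteins during an interferon response, and Usp18 the protease that removes it and that also dampens signalling at the type I receptor. Isg15 was at 9.71, 2.61, 3.99 and 3.40 CPM in SCI Tam, 8.12, 4.07, 7.35 and 5.80 CPM in SCI Veh and 2.52, 1.29, 1.76 and 1.14 CPM in Uninjured libraries. Library 452 was the highest of all 12 and 513, 549 and 564 lay below every SCI Veh library, while every lesion was above every Uninjured cord. Usp18 was at 11.98, 2.52, 7.37 and 3.31 CPM in SCI Tam, 7.69, 4.07, 8.54 and 11.6 CPM in SCI Veh and 3.33, 1.11, 2.02 and 2.11 CPM in Uninjured libraries; 513 and 564 reached into the Uninjured range. Both rose in SCI Veh over Uninjured, Isg15 3.84-fold (edgeR adjusted p = 0.00167) and Usp18 3.82-fold (0.00537). Their SCI Tam to SCI Veh log2 differences were -0.39 (SE 0.37) and -0.38 (SE 0.45), and neither passed (adjusted p = 0.483 and 0.582 by edgeR).

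The restriction factors, which block steps of viral entry, replication or release, held both the member with the largest rise and the one that fell. Mx1, a gene of the dynamin-like GTPase family, was at 7.19, 0.839, 1.13 and 0.367 CPM in SCI Tam, 1.18, 0.864, 2.57 and 3.06 CPM in SCI Veh and 0.230, 0.0857, 0.0879 and 0 CPM in Uninjured libraries. It was nearly undetected without injury, at 4 counts over 4 libraries, and its 18.9-fold rise in SCI Veh (edgeR adjusted p = 0.00835) rests on that. Bst2, or tetherin, which holds budding virus at the cell surface, was at 23.01, 17.1, 22.5 and 10.5 CPM in SCI Tam, 26.7, 14.7, 25.3 and 19.8 CPM in SCI Veh and 5.97, 4.03, 3.95 and 2.19 CPM in Uninjured libraries, and it rose 4.57-fold in SCI Tam over Uninjured (edgeR adjusted p = 0.000166). Every lesion had more Bst2 than any Uninjured cord.

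Ifitm3, a membrane protein that hinders viral fusion, was at 34.04, 32.2, 36.6 and 37.9 CPM in SCI Tam, 54.7, 48.8, 53.2 and 50.9 CPM in SCI Veh and 22.8, 19.3, 15.6 and 9.39 CPM in Uninjured libraries. The groups formed 3 separate steps, and 452 lay with the other SCI Tam libraries. Ifitm3 rose 3.11-fold in SCI Veh over Uninjured (edgeR adjusted p = 2.43e-05). Its SCI Tam to SCI Veh difference was -0.56 (log2, SE 0.18) and just missed the threshold (edgeR adjusted p = 0.0522); 7 of 23 alternatives called it. In 20.5% of its 31-base words Ifitm3 matches another gene, mostly Ifitm1. Cmpk2, a mitochondrial nucleotide kinase whose gene lies beside Rsad2, went the other way. Cmpk2 was at 52.1, 39.1, 40.6 and 52.2 CPM in SCI Tam, 37.8, 33.5, 29.7 and 41.5 CPM in SCI Veh and 61.98, 52.96, 56.2 and 49.95 CPM in Uninjured libraries, and had the highest mean CPM of the members over all 12 libraries, though not within SCI Tam or within SCI Veh. All SCI Veh values lay below all Uninjured ones, and Cmpk2 fell to 0.645 times its Uninjured level (edgeR adjusted p = 0.00102). In SCI Tam its log2 difference from SCI Veh was 0.37 and did not pass (adjusted p = 0.0622 by edgeR). Rsad2 (viperin), its neighbour, was at 2.02 to 14.6 CPM in SCI Tam, 1.98 to 6.80 CPM in SCI Veh and 1.32 to 2.64 CPM in Uninjured libraries and passed in no comparison of groups. Trim30a, Mx2 and Samd9l rose 4.01-fold, 3.14-fold and 2.05-fold in SCI Veh.

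PARP9 and its partner ligase DTX3L modify histones and viral proteins together, and PARP14 is a related ADP-ribosyltransferase. Parp9 was at 23.6, 13.05, 16.6 and 12.03 CPM in SCI Tam, 22.9, 13.6, 24.8 and 18.5 CPM in SCI Veh and 5.16, 5.83, 5.71 and 4.04 CPM in Uninjured libraries. Its lesion groups overlapped and both lay wholly above Uninjured, with a 3.85-fold rise in SCI Veh (edgeR adjusted p = 3.94e-05). Parp14 rose 3.20-fold and Dtx3l 1.76-fold. Parp9 and Dtx3l overlap on opposite strands in the GENCODE annotation, and no source used here says whether the authors counted by strand.

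The GTPases of the guanylate-binding and immunity-related families act on membranes around intracellular pathogens and are known in mouse as strongly induced by interferon-gamma. Iigp1 was at 36.3, 4.38, 4.86 and 4.41 CPM in SCI Tam, 8.98, 3.21, 10.01 and 9.41 CPM in SCI Veh and 2.07, 2.23, 2.90 and 1.32 CPM in Uninjured libraries. Library 452 stood far above the rest, 513, 549 and 564 lay close together, and 428 was low among SCI Veh. Iigp1 rose 3.73-fold in SCI Veh (edgeR adjusted p = 0.0432), and its SCI Tam to SCI Veh difference was 0.61 with an SE of 0.64 (log2; adjusted p = 0.526). Gbp2, Gbp3, Irgm1 and Irgm2 rose 3.30-fold, 3.05-fold, 2.22-fold and 2.53-fold in SCI Veh. Igtp was 2.19-fold higher without passing (adjusted p = 0.0595 by edgeR), though its SCI Veh and Uninjured libraries did not overlap. Igtp and Irgm2 overlap on the same strand in the annotation, and 15.9% of the 31-base words of Igtp are shared, mostly with Irgm2.

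Ifi44, an interferon-induced cytoplasmic protein, had the largest ratio of 452 to the mean of the other SCI Tam libraries. Ifi44 was at 34.99, 2.33, 2.08 and 2.48 CPM in SCI Tam, 3.85, 2.22, 4.78 and 9.09 CPM in SCI Veh and 0.918, 0.429, 1.14 and 0.966 CPM in Uninjured libraries. All but 1 of the SCI Tam values lay within or just below the low end of SCI Veh, and 452 was higher than every other library. In SCI Veh over Uninjured Ifi44 was 5.86-fold higher without passing (edgeR adjusted p = 0.0533), although all SCI Veh libraries were above all Uninjured ones. Ifi35, Xaf1, an apoptosis regulator, and Rtp4, a receptor-transporting protein, rose 2.78-fold, 1.98-fold and 2.64-fold.

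**Figure D2:**
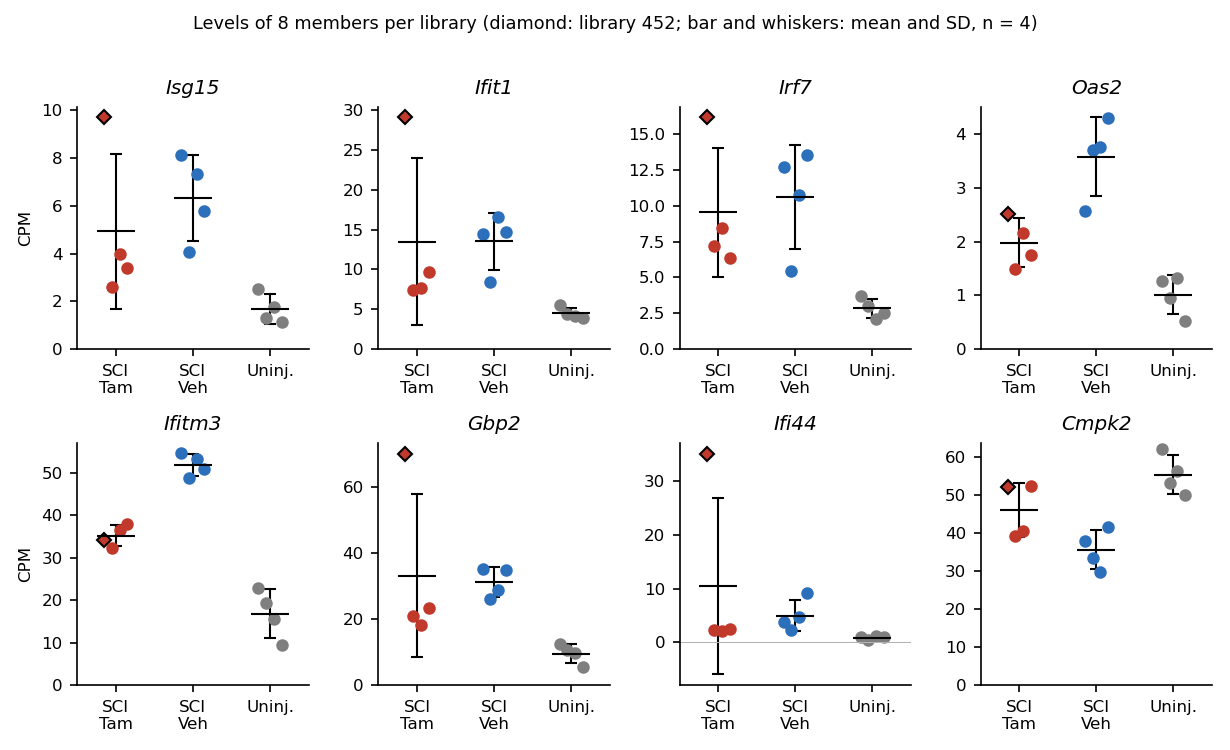
CPM of 8 members in each library (points; SCI Tam red, SCI Veh blue, Uninjured grey), with the mean and SD of each group of 4 as a bar and whiskers and SCI Tam library 452 as a diamond. In Isg15, Ifit1, Irf7, Gbp2 and Ifi44 the diamond lies above all other points, in Oas2 and Ifitm3 the 4 SCI Tam points lie below the SCI Veh points, and Cmpk2 is lowest in SCI Veh.

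In FPKM, the length-scaled level deposited by the authors, by which different genes can be compared, the module spanned a wide range. Ifitm3 was the most abundant member at 62.4 ± 6.02 FPKM in SCI Tam, 87.9 ± 4.23 FPKM in SCI Veh and 28.2 ± 9.58 FPKM in Uninjured libraries (SD, n = 4 each). Bst2 followed in SCI Veh with 28.8 ± 7.30 FPKM, and then came Ifit3 at 20.6 ± 2.85 FPKM and Xaf1 at 17.00 ± 2.64 FPKM. Neighbours among these 3 overlapped within 1 SD, while Ifitm3 stood clear of them. At the low end, Oas2 was at 0.861 ± 0.212 FPKM, Mx1 at 0.711 ± 0.401 FPKM, Oasl1 at 0.695 ± 0.237 FPKM and Oas3 at 0.219 ± 0.151 FPKM in SCI Veh, of which Oas2, Mx1 and Oasl1 overlapped within 1 SD. Cmpk2, by contrast, was next to Ifitm3 the most abundant member in Uninjured cord at 14.8 ± 1.49 FPKM.

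Within SCI Tam the members split by library. The module was described by library because libraries within SCI Tam differed. Counts and calls that set 452 against 513, 549 and 564 therefore restate that difference and are no separate support. Library 452 was the highest of the 4 SCI Tam libraries for 35 of 39 members by CPM and for 32 of 39 by FPKM, and the highest of all 12 libraries for 27. Among the 38 tested members it lay above 513, 549 and 564 in 34 (30.7% of all genes), above every SCI Veh library in 29 (26.8%) and below every SCI Veh library in 3 (26.6%). The 3 below were Dhx58, Ifitm3 and Oas2. Libraries 513, 549 and 564 all lay below every SCI Veh library for 7 of the 38 members, close to the share of all genes (16.5%). They lay above every one for none (15.9%). Those 7 were Isg15, Ifit3, Oasl2, Oas2, Gbp2, Ifitm3 and Xaf1.

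In the fit with a term for the sample name numbering, 16 of 38 members were lower in 513, 549 and 564 than in 452 (1.75% of all genes), none was higher (2.78%), and the median log2 difference was -0.99 against 0.01 over all genes tested. At an unadjusted p under 0.05 there were 30 members (18.7% of all genes). This sets 3 libraries against 1, whose spread is assumed to be like that of the groups, and the numbering and the mouse cannot be told apart in it. The fit compares the libraries whose difference led to the description by library, so its p-values give the size of a known gap. Ifi44 was lower by a log2 difference of -3.92 (SE 0.47, edgeR adjusted p = 0.000343), Mx1 by -3.18 (0.00907), Iigp1 by -2.99 (0.000850) and Zbp1 by -2.56 (0.000873). The other 12 were Rsad2, Oasl1, Igtp, Irgm2, Ifit1, Gbp2, Isg15, Oasl2, Ifit3, Irgm1, Ifit2 and Stat2, with log2 differences of -2.40 (Oasl1) to -0.61 (Stat2). With limma on log2(FPKM + 1) 9 members were lower (0.366% of all genes) and with limma on log2(FPKM + 0.1) 1 was, Igtp (0.207%), while the median differences were -0.792 and -0.999. Ifi44, Iigp1 and Zbp1 passed with the pseudocount of 1 and not with 0.1 (limma adjusted p = 0.0517, 0.0518 and 0.0796), and Mx1 passed with neither (0.114 and 0.238).

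The gap varied within and between the roles. Library 452 over the mean of 513, 549 and 564 had a median ratio of 3.49 among the 6 GTPases (1.91 to 7.98), 2.86 among the 5 OAS genes (1.40 to 5.42), 2.82 for Isg15 and Usp18, and 2.49 among the IFIT genes (1.61 to 3.51). The median was 1.82 for the restriction factors (0.956 to 9.25), 1.70 for the PARP9 group (1.56 to 2.37), 1.56 for the sensors (1.05 to 5.96) and 1.53 for the transcription factors (1.22 to 2.21). These ranges overlap, no difference between roles was tested, and Ifi44 had the highest single value, 15.2. Ifitm3 (0.956), Eif2ak2 (1.05), Dhx58 (1.08) and Cmpk2 (1.19) were near 1. In the FPKM table Ifi44 had a ratio of 14.6, Iigp1 of 7.80 and Ifitm3 of 0.890, near their values by CPM. Other members differed more between the measures. Mx1 had 9.25 by CPM and 3.77 by FPKM, and Oasl1 had 5.42 and 2.36. Samd9l went the other way, with 1.70 by CPM and 2.39 by FPKM.

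Of the 38 members, 14 were at least 2-fold higher in 452 than in any of 513, 549 and 564 and at 1 CPM or more, against 149 of 16473 genes (0.905%). That count, too, restates the difference within SCI Tam. Among 513, 549 and 564 themselves 549 was the highest in 31 of 39 members. Their coefficient of variation had a median of 0.208 over the members, against 0.474 with 452 included, 0.218 in SCI Veh and 0.236 in Uninjured. SCI Veh had a low library too: 428 was the lowest of its group in 34 of 39 members, and Uninjured library 467 was in 30. The orders of 549, 428 and 467 were not counted over all genes, so they are not known to be particular to the members.

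**Figure D3:**
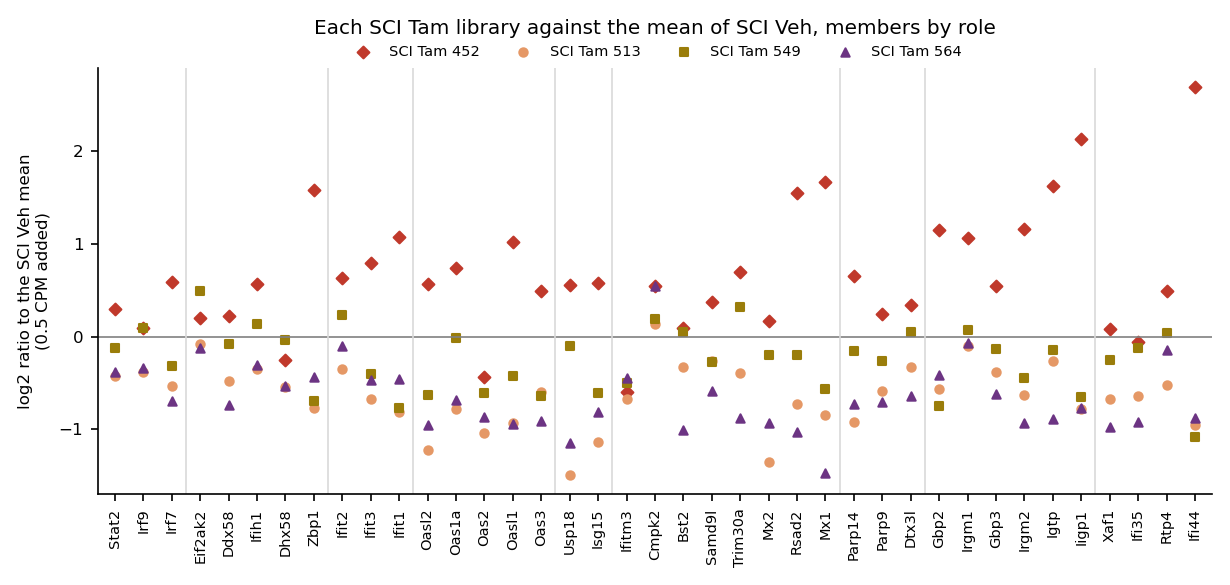
For each member (x axis, by role) the log2 ratio of each SCI Tam library to the SCI Veh mean, with 0.5 CPM added to both. The red diamonds of library 452 lie above 0 except in Ifitm3, Oas2, Dhx58 and Ifi35, while most points of 513, 549 and 564 lie below 0.

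Among the 8 lesions, 452 was outermost in the summed level of 4 of 12 marker lists. It was lowest for fibroblast and pericyte markers (712 CPM, next 717 CPM), Schwann cell markers (356, next 439 CPM) and neutrophil markers (9.95, next 13.1 CPM), and highest for oligodendrocyte markers (20992, next 20898 CPM). Its macrophage and microglia sum was 1326 CPM, inside the 1080 to 2062 CPM of the other SCI Tam libraries and below all SCI Veh libraries (1394 to 2483 CPM), and 0 of 11 of these genes differed between 513, 549 and 564 and 452 (4.53% of all genes). The T and NK cell list summed to 5.03 CPM in 452, 1.99 to 3.91 CPM in the other SCI Tam libraries, 2.22 to 8.54 CPM in SCI Veh and 1.40 to 2.52 CPM in Uninjured libraries; 1 of its 12 genes was tested, with no call, and none was at 0 in all libraries. Plasmacytoid dendritic cell markers summed to 259.8 CPM in 452, within the SCI Veh range of 227 to 283 CPM. The sums were 194 to 256 CPM in the other SCI Tam libraries and 166 to 185 CPM in Uninjured libraries. Most counts of this list were of Tcf4 (23881 over all libraries), followed by Siglech (1957) and Bst2 (1814), a member. Ccr9, Ly6d and Klk1 had 21, 5 and 5 counts, so the sum mainly follows Tcf4 and is no measure of these cells. The part of these markers in the level of the members in 452 was not tested.

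**Figure D4:**
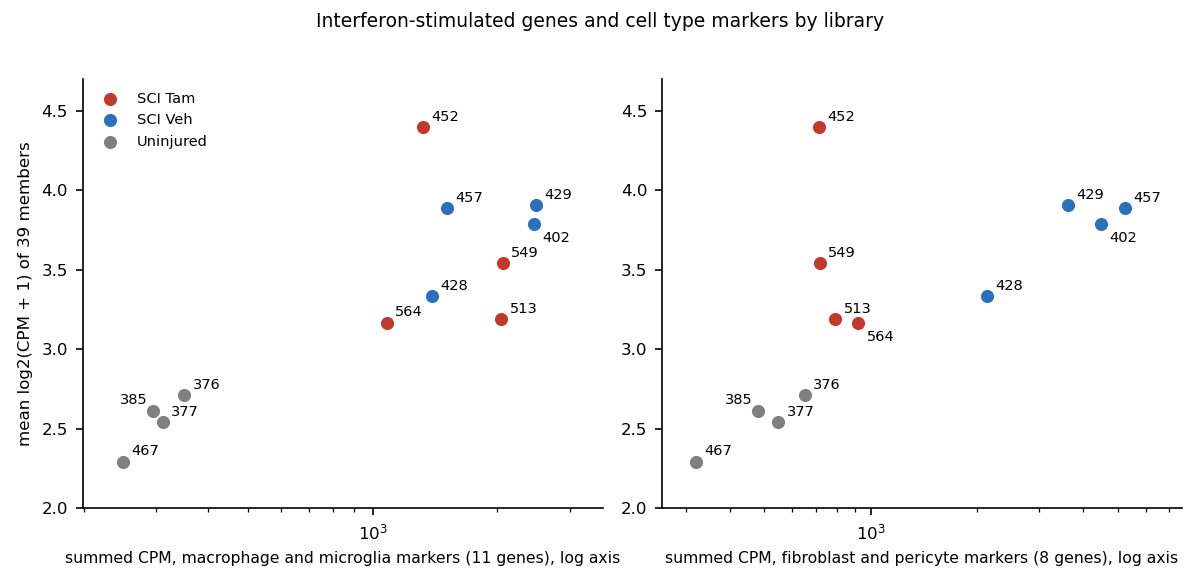
Mean log2(CPM + 1) of the 39 members in each library (y axis) against the summed CPM of macrophage and microglia markers (left) or fibroblast and pericyte markers (right), with the x axes on log scales and mouse numbers beside the points. The Uninjured libraries lie at 2.29 to 2.71, SCI Veh at 3.33 to 3.91 and SCI Tam libraries 564, 513 and 549 at 3.17 to 3.54, while 452 lies at 4.40 with marker sums in or near the range of the other SCI Tam libraries.

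Without library 452 the comparison of SCI Tam with SCI Veh took another shape. Of 38 members 36 then had negative log2 fold changes, the median was -0.53, against 0.00 over all genes tested, and 9 were lower (13.5% of all genes), with none higher (13.9%). Library 452 was the highest SCI Tam library in 35 of 39 members, so leaving it out had to lower most of these values. The calls without it follow in part from that choice of library and are no separate support. Libraries 513, 549 and 564 also differ from SCI Veh in numbering, and the treatment and the numbering cannot be told apart there. Oasl2 fell by 0.94 (log2, edgeR adjusted p = 0.00825), Oas2 by 0.99 (0.0191), Isg15 by 0.92 (0.0280) and Ifit1 by 0.71 (0.0262). Irgm2 (-0.68, SE 0.23), Gbp2 (-0.58, SE 0.20), Xaf1 (-0.62), Ifit3 (-0.52) and Stat2 (-0.30) also fell. The difference of Ifitm3 was -0.54, close to its value with 452, and did not pass (adjusted p = 0.0589 by edgeR). Over Uninjured, SCI Tam without 452 had 31 members higher (27.7% of all genes) and 1 lower, Cmpk2 (24.8%), with a median log2 fold change of 0.96, so the higher level after injury was also seen in 513, 549 and 564.

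**Figure D5:**
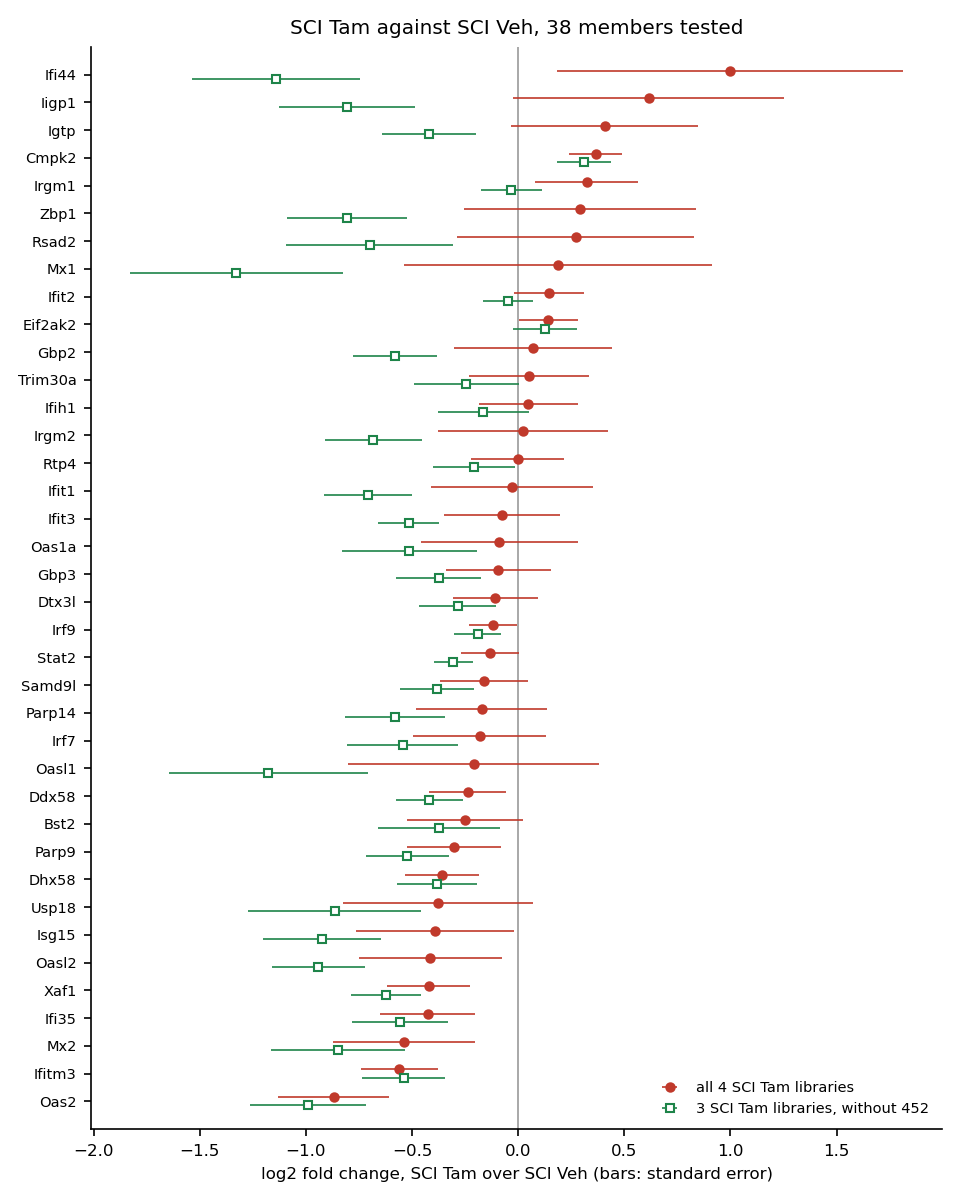
Log2 fold change of SCI Tam over SCI Veh with its standard error for the 38 tested members, with all 4 SCI Tam libraries (red circles) and without library 452 (green squares). The values spread on both sides of 0 with 452, where 14 of 38 are positive, and lie left of 0 in 36 of 38 without it.

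With the numbering as a term, the difference between SCI Tam and SCI Veh rests on library 452 alone, the only SCI Tam library in the lower range. There, 34 of 38 members had positive values with a median of 0.57 (log2), and 5 were higher (0.103% of all genes) with none lower (0.243%). The 5 were Ifi44 (2.77, SE 0.42, edgeR adjusted p = 0.0330), Iigp1 (2.18), Zbp1 (1.75), Igtp (1.65) and Irgm1 (1.08). In the upper range there are only SCI Tam libraries, so no comparison within it exists. The sign of most members in SCI Tam against SCI Veh thus depended on which SCI Tam libraries entered.

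Of the wider interferon pathway, 58 genes were listed and 35 tested. In SCI Veh over Uninjured 24 of the 35 were higher (26.7% of all genes) and 4 lower (24.1%), and without the 5 libraries high in muscle 2 were higher (1.6%) and none lower (0.103%). In SCI Tam over SCI Veh none was higher (7.79% of all genes) and 2 were lower (8.33%; edgeR), and without library 452 10 were lower (13.5%). The ligands themselves were almost absent. Of 21 interferon genes listed, 20 had a row, 17 had no count in any library, and Ifnz, Ifng and Ifnk had 8, 3 and 2 counts in total, Ifng in SCI Veh libraries 428 and 457 only. Over the 126022711 counts of all libraries together, a count of 0 allows a level of up to 0.0238 CPM (3 counts), which covers counting error only. This bounds the level over all libraries pooled. Within a single library, such as 452 with 8302843 counts, a count of 0 allows a higher level.

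Receptor subunits rose in 5 of 6 in SCI Veh over Uninjured, where 26.7% of all genes were higher. Ifnar2, the signalling chain of the type I receptor, was at 26.4, 27.8, 28.4 and 24.9 CPM in SCI Tam, 29.5, 27.2, 32.5 and 32.1 CPM in SCI Veh and 16.3, 15.9, 15.8 and 14.6 CPM in Uninjured libraries and rose 1.94-fold in SCI Veh (edgeR adjusted p = 3.78e-06). Its partner Ifnar1 rose 1.44-fold, the interferon-gamma receptor chains Ifngr1 and Ifngr2 2.69-fold and 1.29-fold, and Il10rb, shared by type III interferon and interleukin receptors, 3.95-fold. Il28ra, the specific chain of the type III receptor, was at 0.719 to 2.30 CPM in SCI Tam, 1.25 to 2.10 CPM in SCI Veh and 1.85 to 3.09 CPM in Uninjured libraries and did not pass (log2 -0.59). None of the 6 passed between SCI Tam and SCI Veh, where 7.79% of all genes were higher and 8.33% lower. None differed between 513, 549 and 564 and 452 (4.53% of all genes), where all 6 values were above 0 (log2 0.04 to 1.22). No call among 6 genes is close to these shares.

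Among regulators, Irf8, a factor of the myeloid lineage, rose 7.37-fold and the feedback inhibitor Socs3 7.41-fold in SCI Veh over Uninjured (edgeR adjusted p = 7.49e-06 and 4.58e-06). The kinase Tyk2 fell in SCI Tam against SCI Veh (log2 -0.47, edgeR adjusted p = 0.0434) at 27.3, 20.7, 27.2 and 16.8 CPM in SCI Tam and 32.5, 26.8, 34.1 and 33.3 CPM in SCI Veh libraries, which overlapped. Myd88, an adaptor of Toll-like receptors, fell too (log2 -0.61, adjusted p = 0.0415 by edgeR), at 7.44 to 10.1 CPM in SCI Tam and 12.8 to 14.6 CPM in SCI Veh libraries, with no overlap. Irf3 (-0.40) and the adaptor Ticam1 (-0.44) came next by p and did not pass. Irf1 (log2 -0.96), a factor induced by interferon-gamma, Samhd1 (-0.85), a nucleotide hydrolase that restricts viruses, and Adar (-0.57), an RNA-editing enzyme, were lower in 513, 549 and 564 than in 452, as were 16 of the members.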

How the data were processed

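The authors deposited raw counts per Ensembl gene and FPKM values. Per the submitters' processing notes, TopHat, Picard, Cufflinks and HTSeq were used on mm9; no source used here gives their versions or settings. Counts were tested with edgeR 4.0.16 (R 4.3.3): filterByExpr by group (minimum count 10, minimum total 15), TMM, and 1 quasi-likelihood fit of 3 group means with 9 residual degrees of freedom, two-sided, Benjamini-Hochberg over 16473 genes at 0.05. Another fit added a term for the sample name numbering. Alternatives were other scalings, filters and sample sets, a term for sex, DESeq2 1.42.0, and limma 3.58.1 on log2(FPKM + 1) and log2(FPKM + 0.1). CPM are TMM-scaled, with factors of 0.98 to 1.02; log2 values come from the deposited counts. Replicates are separate mice by their numbers, and p-values measure only the spread between these mice. The members and lists were chosen with earlier results of these data known. Library values are given for 8 fixed members, the smallest p per comparison, the extremes of level and of the gap within SCI Tam, and the largest change per role. RefSeq promoters and GENCODE names are on GRCm38, so no mm9 position was used. The test was tried on simulated data first. The check of the gene targeted by recombination and 1 gene of the pathway list are not reported here.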

Additional observations from a re-analysis of the deposited data

Results flagged for a closer look

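In 15 of 120 groups of 4 libraries, over the 39 members and the mean over members, 1 library lay so far from the rest that its gap to the nearest other exceeded Dixon's 95% critical value as a share of the group's range. About 1 in 20 groups would be flagged by chance if values were normally distributed. CPM need not be, and the members are not independent of one another. The module was described by library because libraries within SCI Tam differed, so flags in SCI Tam restate that difference and are no separate support. The rate of flags over all genes was not computed. Library 452 of SCI Tam accounted for 13 of the 15, each time as the highest. It held 34.99 CPM of Ifi44, 36.3 CPM of Iigp1, 70.1 CPM of Gbp2, 42.9 CPM of Igtp, 57.5 CPM of Irgm1 and 40.7 CPM of Irgm2. It also held 29.1 CPM of Ifit1, 59.7 CPM of Ifit3, 8.27 CPM of Zbp1, 7.19 CPM of Mx1, 14.6 CPM of Rsad2, 3.24 CPM of Oasl1 and 1.56 CPM of Oas3. The nearest other SCI Tam library was at 2.48 CPM for Ifi44, 4.86 CPM for Iigp1 and 23.2 CPM for Gbp2. The other flags were low values, Iigp1 at 3.21 CPM in SCI Veh library 428, where the nearest was 8.98 CPM, and Rtp4 at 1.84 CPM in Uninjured library 467, where the nearest was 2.98 CPM.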

How the results depend on the processing

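No paired analysis was possible because the labels' replicate numbers are mouse numbers and no number occurs in more than 1 group. Among members in SCI Tam over SCI Veh, the count of lower genes (1) was 2 with library totals alone, with the stricter filter, with DESeq2 and in the fit of the 8 libraries compared, 0 with no filter, with the term for the sample name numbering, with limma on log2(FPKM + 1) or log2(FPKM + 0.1) and without the 5 libraries high in muscle, and 0 to 9 leaving out 1 library. The count of higher genes (0) was 5 with the numbering term, 1 with DESeq2 (Cmpk2) and 0 to 1 leaving out 1 library. Without 452, 12 of 38 members changed from positive to negative, among them Ifi44 (1.00 with 452, -1.14 without) and Iigp1 (0.61, -0.81); Gbp2 (-0.58) and Irgm2 (-0.68) were the ones of the 12 that then passed. Leaving out 1 library, Gbp2 and Irgm2 ranged from -0.58 to 0.27 and from -0.68 to 0.25. Without the muscle libraries, members in SCI Veh over Uninjured were 0 higher and 0 lower (1.6% and 0.103% of all genes), and 14 were higher in SCI Tam over Uninjured (10.5%). Their values stayed positive in 37 and 38 of 39 members. In SCI Tam over Uninjured 0 to 1 was lower leaving out 1 library. Of the 16 members lower in 513, 549 and 564 than in 452, limma called 9 and 1, with medians of -0.792 and -0.999.

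For the pathway list in SCI Tam over SCI Veh, the count lower (2) was 4 with library totals, 5 with DESeq2, 1 with limma on log2(FPKM + 1), 0 on log2(FPKM + 0.1), 1 in the 8-library fit, 0 with the numbering term or without the muscle libraries and 0 to 10 leaving out 1 library, and 1 was higher with the numbering term. Without the muscle libraries it had 2 higher and 0 lower in SCI Veh over Uninjured and 12 higher and 1 lower in SCI Tam over Uninjured, where the numbering term left 1 lower and limma 2 and 2. Of its 4 genes lower in 513, 549 and 564 (1.75% of all genes), limma called 1 and 1 (0.366% and 0.207%). Of all genes, the share lower in SCI Tam over SCI Veh was 9.85% with library totals and 10.2% with DESeq2. It was 5.12% and 4.71% with limma, 5.37% in the 8-library fit, 0.243% with the numbering term and 3.75% to 13.5% leaving out 1 library. In SCI Tam over Uninjured it was 4.29% with the numbering term and 20.5% and 20.3% with limma. Shares without the muscle libraries are those given with the members above. Macrophage and microglia markers were 6 higher without the muscle libraries in SCI Veh over Uninjured. Their count lower in SCI Tam over SCI Veh (1) was 2 with DESeq2, 0 with the numbering term, both limma fits or without the muscle libraries, and 0 to 3 leaving out 1 library. The causes were not tested beyond fewer libraries in each fit that leaves some out. The muscle alternative was chosen after seeing the data. Depth limits the lowest members most: Oas3, Mx1, Oasl1 and Zbp1 had 10, 4, 9 and 13 counts over the Uninjured libraries.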

Other observations

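The 135 genes outside the module that were also at least 2-fold higher in library 452 than in any of 513, 549 and 564, at 1 CPM or more, included other genes known to respond to interferon-gamma. They are named here after their values were seen, and how many of the 135 respond to it was not counted. SCI Veh values are given for Cd74 and Cxcl10 only, so where 452 stood against SCI Veh is not shown for the others. Cd74, the invariant chain of MHC class II, was at 184 CPM in 452, 27.96, 12.7 and 11.3 CPM in 513, 549 and 564, and 49.6 to 110.5 CPM in SCI Veh libraries. Ciita, the master regulator of class II genes, was at 10.5 CPM in 452 and 1.04 to 2.24 CPM in the other 3. H2-Aa was at 63.6 CPM in 452 and 5.33 to 13.4 CPM in the other 3, and H2-Ab1 at 64.6 and 5.51 to 12.4 CPM. The chemokine Cxcl10 was at 21.8 CPM in 452, 2.94 to 4.47 CPM in the other 3 and 5.56 to 10.3 CPM in SCI Veh, and Cxcl9 at 6.35 CPM in 452 and 0 to 0.652 CPM in the other 3. The peptide transporter gene Tap1 was at 31.6 CPM in 452 and 9.18 to 14.3 CPM in the other 3.

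The same 135 genes also held nuclear non-coding RNAs with another pattern. Malat1 was at 747 CPM in 452, 237 to 328 CPM in the other 3 and 763 to 893 CPM in SCI Veh, so here 452 lay near SCI Veh and not above it. Meg3 was at 1591 CPM in 452, 639 to 727 CPM in the other 3 and 1179 to 1889 CPM in SCI Veh. Of the 135 genes 56 were lower in 513, 549 and 564 in the fit with the numbering term, as were all 14 members that met the same rule. The rule and this fit compare the same libraries, so these calls follow in large part from the choice of genes and are no separate result.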
